A study of Mus musculus with 20 samples.

Results

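The heat shock chaperones examined here are 10 genes taken by name from the table of 20 libraries, which lists 24552 genes: the inducible cytosolic HSP70 genes Hspa1a and Hspa1b, their constitutive relative Hspa8, the stress-inducible HSP90 gene Hsp90aa1 and the constitutive Hsp90ab1, the small heat shock protein gene Hspb1, the nucleotide exchange factor gene Hsph1, the J-domain co-chaperone gene Dnajb1, the endoplasmic reticulum HSP70 gene Hspa5, and Hsf1, which encodes the heat shock transcription factor. All 10 were found and all 10 passed the filter on low values (normalized counts averaging 10 or more over the libraries), as did 11288 genes in all. The libraries were made from corneal epithelium scraped from naïve wild-type female C57BL/6J mice, and each library pooled the 2 corneas of 1 mouse. The 4 age groups of 5 mice were 2 to 3 months (2M), 12 to 13 months (12M), 18 to 19 months (18M) and 24 to 25 months (24M). The mice were bought, aged in house or supplied from an aging colony, and since the source of each group was not given, source and age cannot be told apart. Libraries held 6699383 to 10762360 reads assigned to genes. No 2 libraries of the same age agreed within counting error. Krt12, the keratin that defines corneal epithelium, had a mean of 232470 to 255490 normalized counts in the 4 groups.

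Chaperones bind unfolded stretches of other proteins; HSP70 and HSP90 release them in cycles driven by ATP, while small heat shock proteins hold them without it. HSP70 proteins take up clients with the help of J-domain partners such as the product of Dnajb1 and let them go with the help of exchange factors such as the product of Hsph1, and HSP90 proteins act later on a narrower set of clients. Under heat or oxidative stress HSF1 forms trimers, binds heat shock elements (inverted repeats of GAA) upstream of its targets and drives their transcription, while Hspa5 answers mainly to unfolded protein in the endoplasmic reticulum. The corneal epithelium faces ultraviolet light, drying and abrasion, and its chaperones are part of its defence.

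No member passed the limma test in any of the 7 comparisons between ages, and 1, Hspa1a, passed a voom test of all aged libraries. The 1 pair test that passed concerned the inducible HSP70 genes. From 2M to all aged libraries the log2 change was −0.64 for Hspa1a and 0.39 for Hspa1b, neither called by limma. The log2 difference between them fell by 1.04 (exact permutation p = 0.00284, adjusted p = 0.0454 over 16 tests of pairs). This call was lost in 13 of the 20 tests that left out 1 library. Without 2M replicate 1 the change of the difference was −0.78 (adjusted p = 0.159, exact permutation test). The means of the HSP90 genes, Dnajb1 and Hspa5 differed from 2M by at most 0.23 on the log2 scale at each age. In the rest of the chaperone network, 0 of the 73 tested genes were called by limma against 2M at any age (0.532% to 0.78% of all genes), with 2 to 4 at an unadjusted p below 0.05, where 7.18% to 9.97% of all tested genes stood.

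The sequences before the start sites of Hspa1a and Hspa1b are nearly the same, and they are shown because the 1 pair test that passed was of these genes. Promoter windows from RefSeq (GRCm38.p6, 250 bases before each start site and 50 after it) matched 6 of the 10 members (Hspa1a, Hspa1b, Hspb1, Hsph1, Dnajb1 and Hspa5), and not Hspa8, Hsp90aa1, Hsp90ab1 or Hsf1. Of the 300 bases in the windows of Hspa1a and Hspa1b, 296 were identical. The differences, counted from 1 at the 5′ end of the window with the Hspa1a base first, were C44T, T47C and T249G before the start site and C276T after it. The 250 bases before each start site follow, 5′ to 3′, with the 1 pair of heat shock units (GAANNTTC or TTCNNGAA) in capitals; this pair began 104 bases before the start site in both genes.
Hspa1a (chr17:34972157-34972406, strand -): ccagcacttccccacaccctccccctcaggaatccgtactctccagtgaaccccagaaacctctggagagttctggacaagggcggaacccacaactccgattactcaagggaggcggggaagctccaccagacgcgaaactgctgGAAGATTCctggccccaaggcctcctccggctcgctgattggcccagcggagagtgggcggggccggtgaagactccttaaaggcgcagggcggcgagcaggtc
Hspa1b (chr17:34959239-34959488, strand -): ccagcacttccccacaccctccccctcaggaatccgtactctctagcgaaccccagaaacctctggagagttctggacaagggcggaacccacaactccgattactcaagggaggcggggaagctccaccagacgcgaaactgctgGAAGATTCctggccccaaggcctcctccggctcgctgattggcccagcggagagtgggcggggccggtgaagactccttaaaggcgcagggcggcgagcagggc

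Hspb1 held a heat shock pair at 2 places, beginning 117 and 97 bases before its start site, and is shown as the member with the most such pairs before the start. Hsph1 held 1 pair before its first listed start site, beginning at base −33, and Hspa5 held in its place an endoplasmic reticulum stress element (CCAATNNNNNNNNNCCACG) beginning at base −65. For these 2 genes the last 100 bases before the start are given, with the matches in capitals.
Hspb1 (chr5:135887669-135887918, strand +): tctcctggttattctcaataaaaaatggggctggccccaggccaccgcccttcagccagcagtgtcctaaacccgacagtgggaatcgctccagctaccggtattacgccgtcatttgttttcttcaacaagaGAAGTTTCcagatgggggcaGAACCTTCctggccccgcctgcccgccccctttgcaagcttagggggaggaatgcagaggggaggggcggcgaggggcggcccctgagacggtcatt
Hsph1 (chr5:149636337-149636436, strand -): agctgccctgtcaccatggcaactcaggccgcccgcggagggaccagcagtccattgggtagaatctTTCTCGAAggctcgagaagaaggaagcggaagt
Hspa5 (chr2:34771990-34772089, strand +): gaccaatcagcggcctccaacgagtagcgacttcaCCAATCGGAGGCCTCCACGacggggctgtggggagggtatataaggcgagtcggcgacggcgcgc
Both strands were read for each motif. Of all 32851 promoter windows, 15.1% held a heat shock pair and 0.119% the stress element. A run of 3 units (GAANNTTCNNGAA or TTCNNGAANNTTC), which overlaps the pairs by construction, was in 0.603% of windows, among them Hsph1, where it lay after the start site. Neither of the 2 windows of Dnajb1 held an exact match to any of these motifs. Units with a changed base and bases outside the windows were not searched, so this does not show that Dnajb1 lacks heat shock elements. A match is a description of these letters and not a binding site.

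Libraries primed from the poly(A) tail read the 3′ end of a transcript, so it was counted how far those ends can be told apart. Of the 426 windows of 75 bases (the length of a read) in the last 500 bases of the longest coding transcript of each member, none was shared with another gene for Hspa1a, Hspa1b, Hsp90aa1, Hsph1, Dnajb1, Hspa5 and Hsf1. Over their whole transcripts, 52.7% of the Hspa1a windows also occurred in Hspa1b, but none of those at the end. Hspa8 was the exception: 83.8% of its windows occurred in transcripts of 10 other genes, all but 1 of them annotated as processed pseudogenes, and the other, the lincRNA Gm26825, held all 357 of the shared windows, so its count rests on the remaining reads or on how shared reads were treated, and its values are uncertain. The shares were 10.3% for Hspb1, with the pseudogene Hsp25-ps1, and 2.35% for Hsp90ab1.

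Values are normalized counts (reads divided by the size factor of the library), and changes are differences of log2(normalized count + 1), tested with limma across all 11288 genes and adjusted by the Benjamini-Hochberg method. A gene was called where the adjusted p did not exceed 0.05 and the change reached 1.2-fold. Against 2M, 0.532% of all genes were called at 12M, 0.673% at 18M, 0.78% at 24M and 1.01% with the 15 aged libraries as 1 group, while between the aged groups the shares were 0.00886% (18M against 12M), 0.195% (24M against 12M) and 0% (24M against 18M). Of the 10 members, 0 were called in each of these 7 limma comparisons. The members at an unadjusted p below 0.05 were 1 at 12M, 1 at 18M, 3 at 24M and 2 in all aged libraries, beside 9.56%, 7.18%, 9.97% and 7.89% of all tested genes. Between the aged groups they were 0, beside 7.43% of all tested genes (18M against 12M), 14.7% (24M against 12M) and 5.31% (24M against 18M). Fitted with voom on the recovered reads, 1 member, Hspa1a, was called in all aged libraries, where voom called 162 of the 11288 tested genes and limma 114. In the other comparisons voom called 0 members. Against 2M it called 38 of all tested genes at 12M, 61 at 18M and 75 at 24M. Between the aged groups it called 0 (18M against 12M), 21 (24M against 12M) and 0 (24M against 18M). The members' counts at an unadjusted p below 0.05 were the same as with limma.

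**Figure D1:**
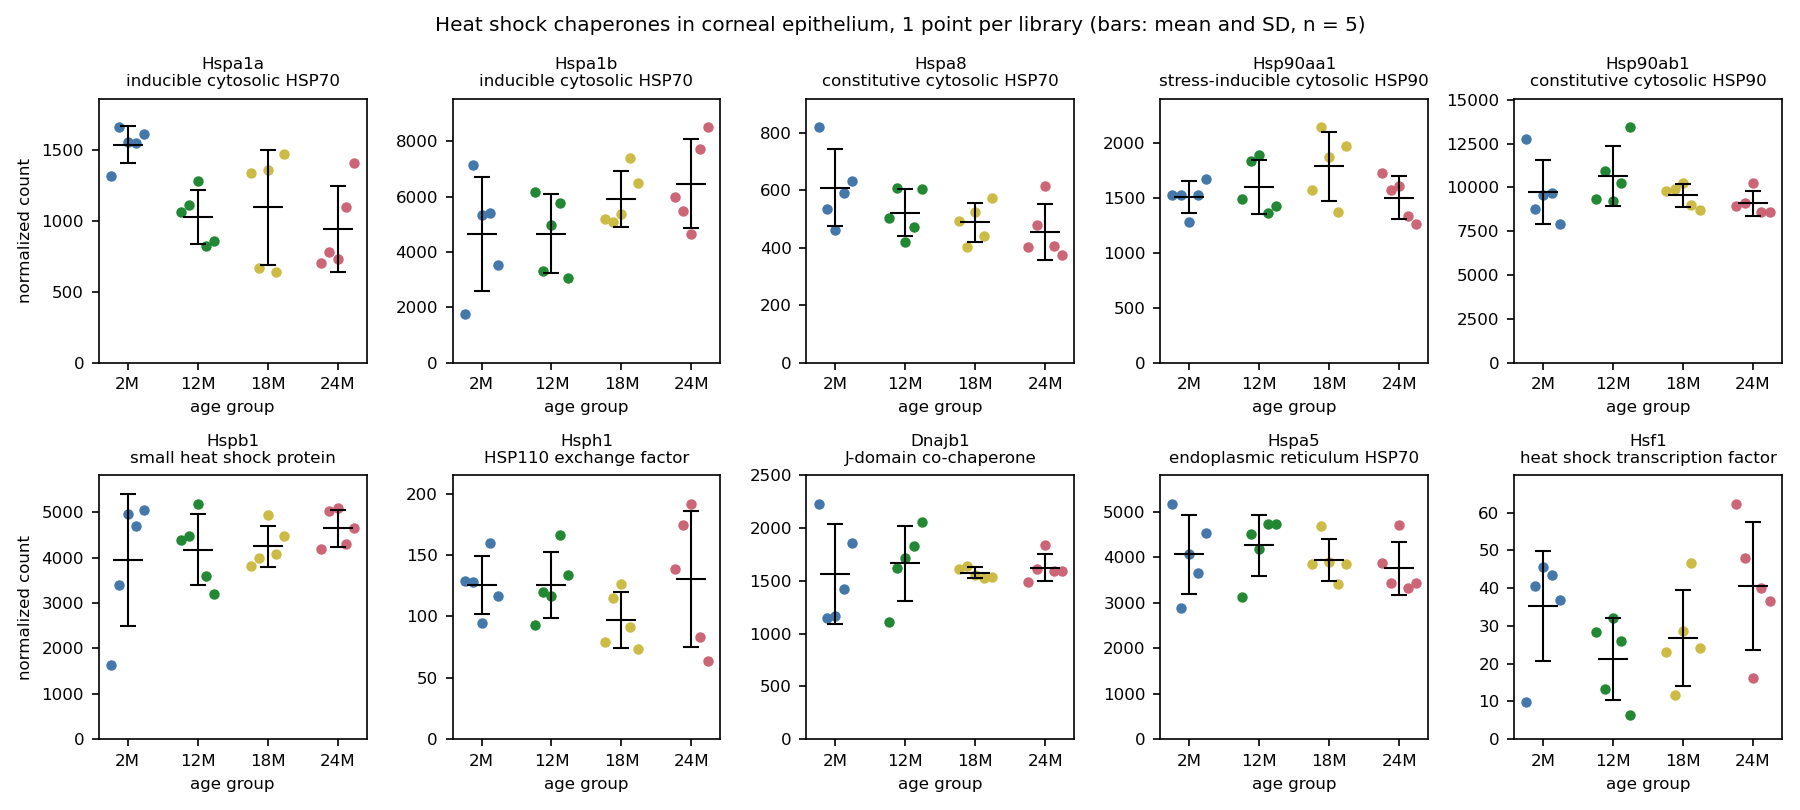
Normalized counts of the 10 members (vertical axis, from 0, a scale of its own in each panel) in the 4 age groups, 1 point per library, with the mean and SD of 5 libraries. Hspa1a sits between 1318 and 1662 at 2M and between 822 and 1283 at 12M, without overlap (1.98% of all tested genes did not overlap between these groups), while the other 9 members overlap with 2M at every age and Hspa1a does at 18M and 24M (2.05% and 2.81% of all tested genes did not).

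Hspa1a (chr17:34969359-34972156, NCBI gene 193740) encodes an HSP70 that stressed cells make in quantity. Its normalized counts were 1318, 1662, 1555, 1547 and 1615 in the 2M libraries. At 12M they were 1065, 1110, 1283, 822 and 855, so that all 5 libraries lay below every 2M library; 1.98% of all tested genes had 12M and 2M libraries that did not overlap. The 18M libraries split, with 1342, 1360 and 1473 in 3 of them and 669 and 639 in replicates 2 and 4. At 24M the counts were 700, 780, 733, 1098 and 1409, and 4 of the 5 lay below every 2M library. The means were 1539 ± 133 at 2M, 1027 ± 191 at 12M, 1096 ± 407 at 18M and 944 ± 304 at 24M (SD, n = 5), and the coefficient of variation went from 8.61% at 2M to 37.2% at 18M and 32.3% at 24M.

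The log2 fold change of Hspa1a against 2M was −0.60 ± 0.21 at 12M (SE; limma adjusted p = 0.293), −0.58 ± 0.21 at 18M (adjusted p = 0.415) and −0.76 ± 0.21 at 24M (adjusted p = 0.109). Over all aged libraries it was −0.64 ± 0.17, with a 95% confidence interval from −0.99 to −0.30 and a limma adjusted p of 0.0613. The same change gave an adjusted p of 0.0334 with voom and ran from 0.034 to 0.191 over the limma fits that left out 1 library, passing in 4 of the 20 (without 18M replicates 1, 3 or 5, or 24M replicate 5). Without 24M replicate 5 the 24M change also passed (adjusted p = 0.0252). Two-sided exact permutation tests of this gene alone gave p = 0.00794 at 12M, the smallest value that 5 libraries against 5 allow, 0.0317 at 18M, 0.0159 at 24M and 0.004 over all aged libraries, none of which passed when adjusted over all 11288 genes (adjusted p = 0.4, 0.6, 0.357 and 0.196). Between the aged groups the order was not resolved: 24M minus 12M was −0.16 on the log2 scale, with an interval from −0.59 to 0.28, and 18M minus 12M was 0.02, from −0.41 to 0.45.

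Most markers of stromal keratocytes were lower in the aged libraries too. The summed level of 12 keratocyte genes ran from 3728 to 6726 normalized counts at 2M and from 2681 to 3643 at 12M. It ran from 2744 to 4179 at 18M and from 2279 to 3659 at 24M. Limma called 3 of the 12 lower at 12M, 4 lower and 1 higher at 18M, and 6 lower and 1 higher at 24M. The gene called higher was Aldh1a1, which averaged 1220, 1817, 1930 and 1919 at the 4 ages and so held up the sum. Col1a1, called lower at each later age, averaged 929, 116, 123 and 73.1. Of the defining genes, Kera (keratocan) averaged 30.5 at 2M, 2.84 at 12M, 28.7 at 18M and 9.11 at 24M, and Lum (lumican) 72.7, 25.6, 48.8 and 23.3. Neither was called at 12M, 18M or 24M (limma adjusted p from 0.0702 to 0.916). Ptgds was at 0 in all 2M and all 24M libraries. Of the conjunctival keratins, Krt4 and Krt19 were lower as well, while Krt13 was not called (limma adjusted p = 0.722, 0.893 and 0.378 at 12M, 18M and 24M). Krt4 had a log2 change of −1.07, −1.09 and −1.54 at 12M, 18M and 24M (limma adjusted p = 0.000707, 0.000623 and 2.17e-06), and Krt19 was called lower at 12M and 18M (−0.78 and −0.77; adjusted p = 0.0391 and 0.0379). Of the 4 tested genes of the 8 on the conjunctival list, 2, 2 and 1 were called lower at the 3 ages. The list summed to 28465 to 49792 normalized counts at 2M, 24416 to 40006 at 12M, 27548 to 37297 at 18M and 24764 to 29884 at 24M, most of it Krt13. Muc5ac, the mucin of goblet cells, was at 0 in 4 of 5 libraries at 2M, 5 of 5 at 12M, 2 of 5 at 18M and 3 of 5 at 24M. The part of keratocytes and conjunctival cells in the Hspa1a levels was not tested. In scraped tissue, fewer cells of a type and less RNA per cell cannot be told apart.

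Hspa1b (chr17:34956429-34959238, NCBI gene 15511), the neighbouring copy, had 1748, 7155, 5316, 5400 and 3521 normalized counts at 2M and 6180, 3294, 4969, 5771 and 3074 at 12M. At 18M it had 5204, 5088, 5376, 7395 and 6475, and at 24M 5981, 5472, 4653, 7712 and 8505. The 2M range, from its lowest library to its highest, covered all the 12M libraries, 4 of the 18M libraries and 3 of the 24M libraries. The log2 change was 0.10 ± 0.26 at 12M, 0.49 ± 0.26 at 18M and 0.60 ± 0.26 at 24M (limma adjusted p = 0.949, 0.735 and 0.414), with none called. The 2M replicate 1 alone set much of this spread, at 1748 against 3521 or more in the other 2M libraries, and without it the changes were −0.21, 0.17 and 0.28.

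Within a library the difference of the log2 values of Hspa1a and Hspa1b does not depend on the size factor of the library, apart from the added 1. It was −0.41, −2.11, −1.77, −1.80 and −1.12 in the 2M libraries and −2.54, −1.57, −1.95, −2.81 and −1.84 at 12M. At 18M it was −1.95, −2.93, −1.98, −3.53 and −2.14, and at 24M −3.09, −2.81, −2.66, −2.81 and −2.59. All 5 of the 24M libraries lay below every 2M library, and the 12M and 18M groups overlapped with 2M. Of single tested genes 2.81% did not overlap between 24M and 2M, and no such share was computed over pairs of genes. The mean fell from −1.44 ± 0.68 at 2M (SD, n = 5) to −2.14 ± 0.51, −2.51 ± 0.70 and −2.79 ± 0.19 at the 3 later ages.

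Against 2M these are changes of −0.70 at 12M (exact permutation p = 0.119, adjusted p = 0.315 over the 16 pair tests), −1.06 at 18M (p = 0.0238, adjusted p = 0.127, exact) and −1.35 at 24M (p = 0.00794, the smallest allowed, adjusted p = 0.0635, exact). Over all aged libraries the change was −1.04, so that the ratio of Hspa1a to Hspa1b was 0.487 of its 2M value, and this was the 1 pair test of 16 that passed (exact permutation p = 0.00284, adjusted p = 0.0454). Without 2M replicate 1, whose difference of −0.41 was the nearest to 0 of the 20, the change was −0.78 and the adjusted p 0.159 (exact permutation test). Over all 20 ways to leave out 1 library the adjusted p ran from 0.0151 to 0.159. Between the aged groups, in tests added after the data were seen, the mean at 24M was below that at 12M by 0.65 at an exact permutation p of 0.0397, which did not pass after adjustment over 12 tests, those of the 4 pairs in 3 comparisons (adjusted p = 0.476).

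**Figure D2:**
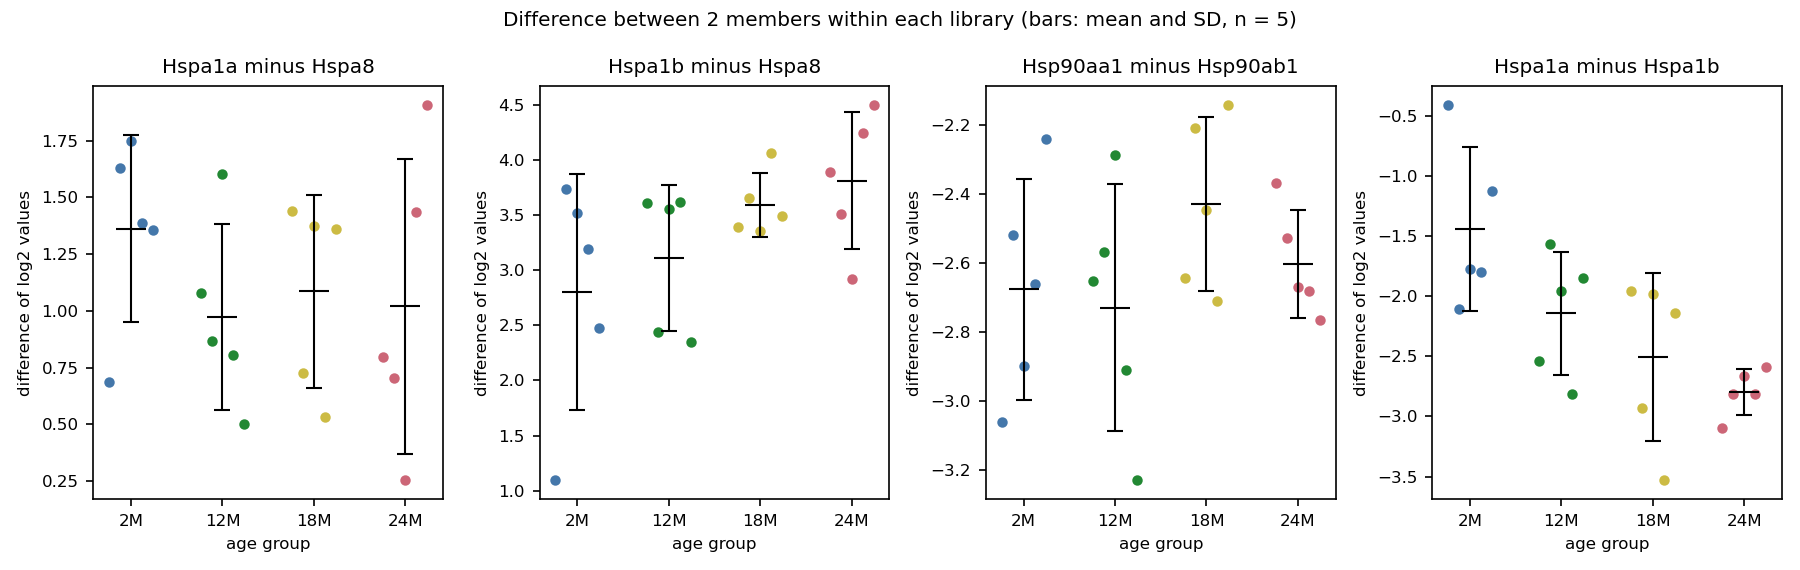
Difference of the log2 values of 2 members within each library (vertical axis) by age group for the 4 pairs tested, 1 point per library, with the mean and SD of 5 libraries. Hspa1a minus Hspa1b goes from a mean of −1.44 at 2M to −2.79 at 24M, and the 2M library at −0.41 stands above the others.

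Hspa8 (chr9:40801276-40805202, NCBI gene 15481) encodes the HSC70 that unstressed cells rely on, and its count is uncertain because other genes share most of its 3′ end, as given above. It had 819, 536, 462, 590 and 631 normalized counts at 2M, 504, 608, 421, 470 and 604 at 12M, 494, 403, 525, 442 and 573 at 18M, and 403, 478, 615, 406 and 375 at 24M. All 3 later groups overlapped with 2M. The log2 change was −0.21 ± 0.16 at 12M, −0.30 ± 0.16 at 18M and −0.41 ± 0.16 at 24M (SE; limma adjusted p = 0.757, 0.745 and 0.355), and −0.31 over all aged libraries (adjusted p = 0.492; exact permutation p = 0.0321 for this gene alone).

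Set against Hspa8 within a library, neither inducible gene changed by the test. Hspa1a minus Hspa8 went from 1.36 ± 0.41 at 2M to 0.97 ± 0.41, 1.09 ± 0.42 and 1.02 ± 0.65 at 12M, 18M and 24M (SD, n = 5; adjusted p from 0.315 to 0.487 over the 4 exact permutation tests). Hspa1b minus Hspa8 went from 2.80 ± 1.07 to 3.11 ± 0.66, 3.59 ± 0.29 and 3.81 ± 0.62, with adjusted p from 0.292 to 0.707 in the exact permutation tests. Without 2M replicate 1 the differences of Hspa1b minus Hspa8 from 2M were −0.12 at 12M, 0.36 at 18M, 0.58 at 24M and 0.27 over all aged libraries, beside 0.31, 0.79, 1.01 and 0.70 with it. The difference was highest at 24M for Hspa1b and at 2M for Hspa1a.

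Hspa1b and Hspa8 moved against each other from library to library. With the mean of its age taken from each value, Pearson's r was −0.725 over the 20 libraries (permutation within ages, p = 0.00196, adjusted p = 0.00784 over 4 pairs of members), and Spearman's rho was −0.648 (permutation p = 0.00645, adjusted p = 0.0258). Without the 2 libraries farthest from the median in Hspa1b, 2M replicates 1 and 2, r was −0.649. The other 3 pairs gave r from −0.045 to 0.255 (permutation adjusted p from 0.241 to 0.88). This correlation was computed after the data were seen, both genes share the size factor of each library, and the Hspa8 count is uncertain.

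**Figure D3:**
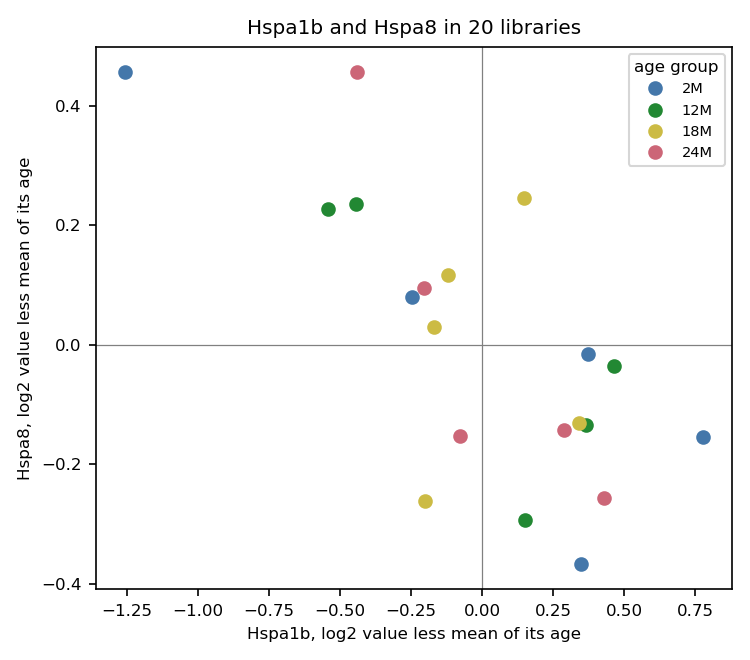
Hspa8 (vertical axis) against Hspa1b (horizontal axis) in the 20 libraries, each as the log2 value less the mean of its age group. The points run from upper left to lower right (r = −0.725), and the 2M library at the far left is replicate 1, with 1748 counts of Hspa1b and 819 of Hspa8.

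No test of the HSP90 pair passed. Hsp90aa1 (chr12:110691036-110696395, NCBI gene 15519), the form that stress induces, had 1531, 1531, 1277, 1530 and 1676 normalized counts at 2M and 1487, 1839, 1889, 1359 and 1431 at 12M. At 18M it had 1568, 2145, 1875, 1374 and 1978, with 3 libraries above every 2M library, and at 24M 1730, 1573, 1609, 1335 and 1260. Its log2 change was 0.08 at 12M, 0.23 at 18M and −0.01 at 24M, each ± 0.13 (SE; limma adjusted p = 0.915, 0.766 and 0.991). The sign at 24M turned with the scaling, to 0.0027 after quantile normalization and 0.045 with total-count scaling.

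Hsp90ab1 (chr17:45567778-45573261, NCBI gene 15516), the constitutive form, ranged from 7935 to 12781 normalized counts at 2M, from 9220 to 13435 at 12M, from 8735 to 10225 at 18M and from 8573 to 10255 at 24M. The changes were 0.13, −0.01 and −0.09, each ± 0.12 (limma adjusted p = 0.802, 0.994 and 0.862). At 24M the 95% interval reached from −0.32 to 0.15. Hsp90aa1 minus Hsp90ab1 was −2.68 ± 0.32 at 2M and −2.73 ± 0.36, −2.43 ± 0.25 and −2.60 ± 0.16 later (SD, n = 5), with adjusted p from 0.33 to 0.802 in the exact permutation tests.

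Hspb1 (chr5:135887919-135889563, NCBI gene 15507) encodes HSP25, a small chaperone that holds unfolding proteins and binds actin. It had 1633, 3392, 4963, 4698 and 5050 normalized counts at 2M, from 3206 to 5187 at 12M, from 3803 to 4935 at 18M and from 4180 to 5094 at 24M. The log2 change was 0.17, 0.21 and 0.34, each ± 0.20 (limma adjusted p = 0.872, 0.928 and 0.602). Again 2M replicate 1 was the lowest library, and without it the changes were −0.12, −0.08 and 0.05.

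The co-chaperones of HSP70 gave no call. Dnajb1 (chr8:83608175-83612653, NCBI gene 81489) had 2233, 1147, 1165, 1424 and 1862 normalized counts at 2M, from 1106 to 2062 at 12M, from 1525 to 1643 at 18M and from 1494 to 1840 at 24M. The means were 1566 ± 471, 1667 ± 354, 1575 ± 52.2 and 1626 ± 128 (SD, n = 5), so the libraries lay closer together at 18M and 24M than at the 2 earlier ages. Its log2 changes ran from 0.06 to 0.11 (limma adjusted p from 0.889 to 0.988). Hsph1 (chr5:149616843-149636498, NCBI gene 15505) was lower in counts and noisier, with means of 126 ± 23.6, 126 ± 27.0, 97.1 ± 22.8 and 131 ± 55.8. At 24M its libraries were at 138, 175, 192, 83.5 and 64.0, with 2 above and 2 below every 2M library, and its change at 18M was −0.38 ± 0.27 (adjusted p = 0.867). The sign of the near-zero Hsph1 change turned with quantile normalization at 12M and with total-count scaling at 24M.

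Hspa5 (chr2:34772090-34776529, NCBI gene 14828), which encodes BiP, the HSP70 of the endoplasmic reticulum, had means of 4075 ± 870, 4264 ± 670, 3940 ± 462 and 3759 ± 581 normalized counts (SD, n = 5). The 2M libraries ran from 2890 to 5186 and held every later library within that range. Its changes were 0.08, −0.03 and −0.10, each ± 0.14 (limma adjusted p = 0.926, 0.993 and 0.865).

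Hsf1 (chr15:76477362-76501155, NCBI gene 15499) was the member read least, with 5 to 64 reads per library. It had 9.87, 40.5, 45.7, 43.4 and 37.0 normalized counts at 2M, 28.5, 13.2, 32.1, 26.1 and 6.37 at 12M, 23.2, 11.7, 28.6, 46.6 and 24.2 at 18M, and 62.4, 48.0, 16.1, 40.0 and 36.7 at 24M. The groups overlapped, and the lowest 2M library, replicate 1, was again apart from the other 4. The overlap of 12M with 2M rested on that library alone, since the other 2M libraries were at 37.0 or more and no 12M library was above 32.1, and without it the changes were −1.13, −0.73 and −0.15 (limma adjusted p from 0.302 to 0.988). The log2 change was −0.74 at 12M, −0.34 at 18M and 0.24 at 24M, each ± 0.51 (limma adjusted p = 0.703, 0.974 and 0.926). At 12M the 95% interval ran from −1.78 to 0.30.

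**Figure D4:**
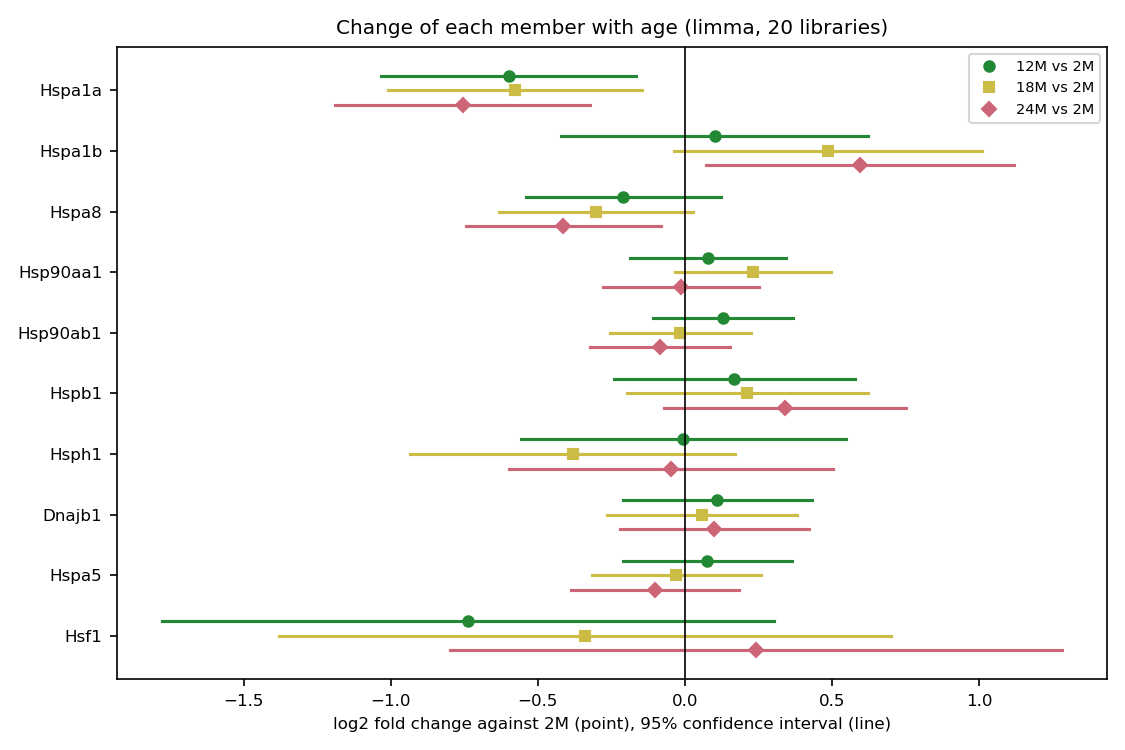
Log2 fold change of each member against 2M (horizontal axis; points) with 95% confidence intervals (lines) at 12M, 18M and 24M, from limma on 20 libraries. The Hspa1a intervals lie below 0 at all 3 ages before adjustment (24M, −1.19 to −0.32), and those of Hsf1 are the widest.

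The spread between libraries of 1 age differed widely between members. The SD of the log2 values within ages was 0.399 for Hspa1a, 0.506 for Hspa1b, 0.259 for Hspa8, 0.208 for Hsp90aa1, 0.184 for Hsp90ab1, 0.384 for Hspb1, 0.43 for Hsph1, 0.277 for Dnajb1, 0.243 for Hspa5 and 0.806 for Hsf1. The median over the 7062 tested genes that averaged 100 or more normalized counts was 0.289. The HSP90 genes, Hspa5, Hspa8 and Dnajb1 were thus below that median, and Hspa1b, Hsph1, Hspa1a and Hspb1 above it. The range of the 4 age means was 1.89 times the SD within ages for Hspa1a, 1.60 times for Hspa8 and 0.396 times for Dnajb1.

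Exact permutation tests of each gene alone, which use no shared estimate of spread, gave fewer members than limma at 24M. At a p of 0.05 or less there was 1 member of 10 at 12M, 1 at 18M, 1 at 24M and 2 over all aged libraries, namely Hspa1a each time and Hspa8 in the last. Of all genes tested, 7.68%, 6.99%, 10.2% and 8.04% had such a p in the same 4 comparisons, so the members' share was near that of the background in the first 3. The median log2 change of the 10 members was 0.08 at 12M, −0.02 at 18M and −0.03 at 24M, beside −0.01, −0.001 and 0.005 for all tested genes.

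The other genes of the chaperone network were listed by role, 83 genes in all, of which 73 were tested. They comprise the other HSP70, HSP110 and HSP90 genes, other small heat shock proteins, the mitochondrial chaperonin, J-domain proteins, HSP70 exchange factors, HSP90 co-chaperones, the subunits of the cytosolic chaperonin TRiC, other heat shock factors, polyubiquitin and the folding and stress genes of the endoplasmic reticulum. At 12M, 18M and 24M, 0 of 73 were called in limma against 2M (0.532%, 0.673% and 0.78% of all genes), with 4, 4 and 2 at an unadjusted p below 0.05 (9.56%, 7.18% and 9.97% of all genes) and 3, 4 and 2 with voom, which also called 0. The median change was −0.04, −0.04 and −0.02, and 30, 29 and 32 of the 73 lay above 0, beside 5449, 5619 and 5726 of all 11288 tested genes. The summed level ran from 51456 to 60387 normalized counts at 2M and from 49237 to 53041 at 24M.

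The 4 network genes with the smallest unadjusted p, none of them called, were all but 1 from the list of endoplasmic reticulum folding and stress genes. Pdia6, a protein disulfide isomerase, had a log2 change of −0.37 ± 0.12 at 12M (limma adjusted p = 0.225). Ddit3, which encodes the stress factor CHOP, had −1.37 ± 0.47 at 18M (limma adjusted p = 0.357). Calr, the lectin chaperone calreticulin, ranked by its p over all aged libraries, had −0.18 at 12M, −0.30 at 18M and −0.33 at 24M (limma adjusted p = 0.305 at 24M). St13, which encodes the HSP70 partner HIP, had 0.38 ± 0.16 at 12M (limma adjusted p = 0.403) and −0.18 at 24M. Of the 16 tested genes of that list, 11, 12 and 9 lay below 0 at the 3 ages, with medians of −0.18, −0.11 and −0.09. Of all 11288 tested genes, 5838, 5669 and 5561 lay below 0.

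**Figure D5:**
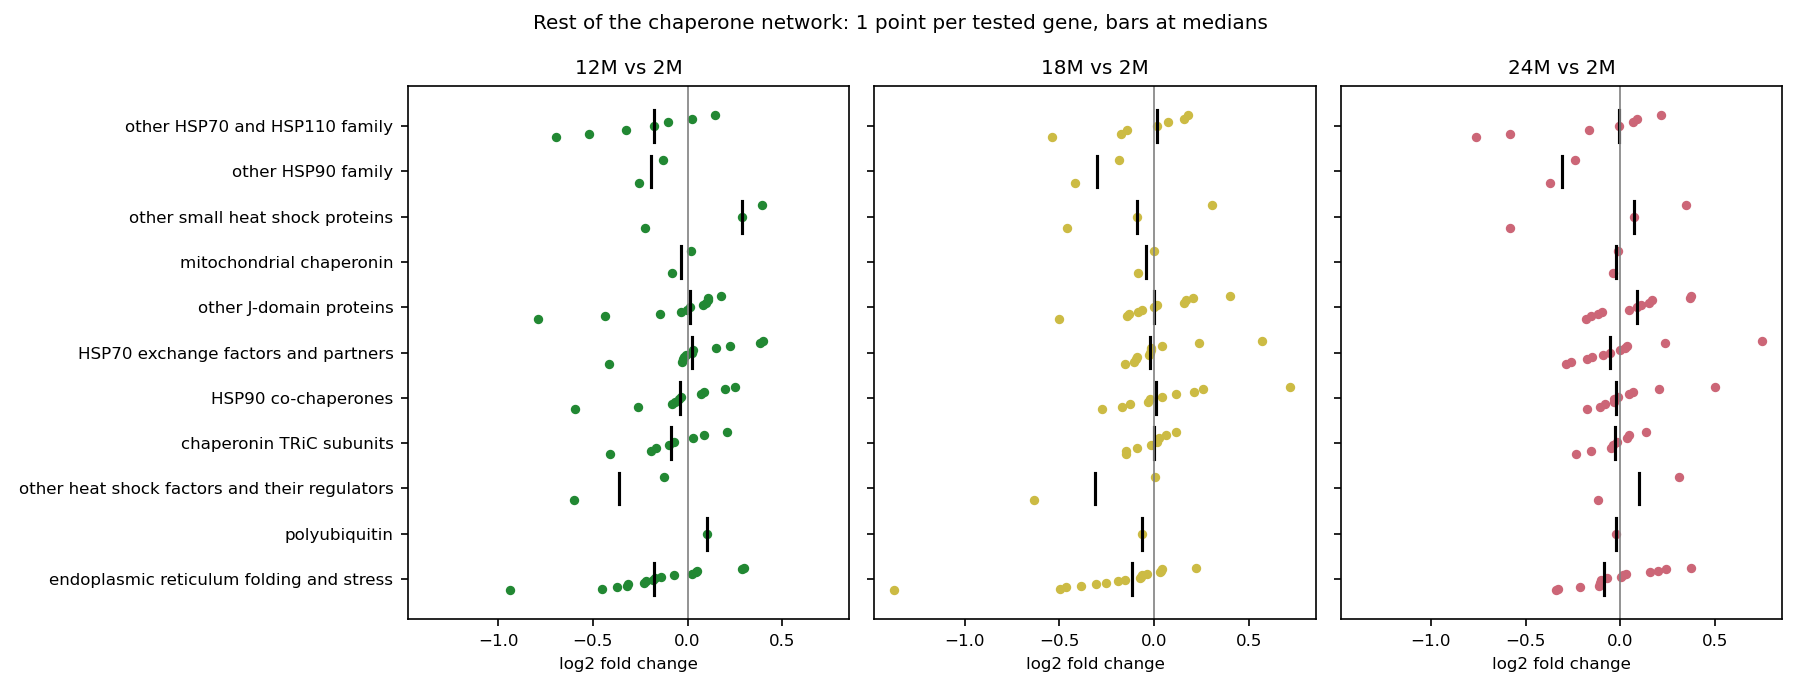
Log2 fold change against 2M (horizontal axis) of the 73 tested genes of the rest of the chaperone network at 12M, 18M and 24M, 1 point per gene in rows by role, with bars at the median of each role. The medians of the larger roles lie close to 0; that of the endoplasmic reticulum genes is −0.18 at 12M and −0.09 at 24M.

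Immediate early genes, which respond within minutes to handling or injury, and genes of the circadian clock were counted beside the chaperones. Of 13 tested early stress genes 0 were called in limma against 2M at each age, with 2, 3 and 3 at an unadjusted p below 0.05, beside the 9.56%, 7.18% and 9.97% of all genes. Of 14 tested clock genes 0 were called, with 6, 2 and 4 at an unadjusted p below 0.05 (the same shares of all genes apply) and medians of 0.34, 0.28 and 0.19, further from 0 than those of the chaperones. The part of early stress or of the clock in the chaperone levels was not tested.

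The genes most like Hspa1a over the 20 libraries, by Pearson's r of the log2 values as a description, were Cdh3 (0.822), Clec2g (0.766), Ddx43 (0.756), Eln (0.750) and Rdh13 (0.722). With the age means removed they were Cdh3 (0.762), Plag1 (0.741), Rdh13 (0.730), Tnfrsf11a (0.723) and Nek2 (0.722). For Hsp90aa1 they were Pard3 (0.833), Iars2 (0.787), Dmtf1 (0.763), Npat (0.758) and Dcun1d1 (0.757), and with age means removed Iars2 (0.839) and Pard3 (0.824) led, followed by Helq, Setd5 and Dmtf1. No other member was among them. The likeness of Hspa1a to Hspa1b was −0.058, and 0.255 with age means removed. That of Hsp90aa1 to Hsp90ab1 was 0.007, and −0.036 with age means removed. All points share the size factors of the libraries.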

How the data were processed

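RNA of 20 libraries was converted from oligo-dT primers with a Lexogen kit and sequenced as single reads of 75 bases. Per the labels and the methods of the study, the authors trimmed reads with cutadapt, checked them with FastQC, aligned them to GRCm38 with STAR, counted genes with HTSeq and normalized by relative log expression with DESeq2; versions are not given in the sources used here. The deposited values are log2(normalized count + 1). Multiplied back by size factors of 0.7603 to 1.3343, 100% of them were whole reads within 0.1. The authors' tables also hold their own fold changes and p-values, which were not used. Handling of reads with several matches, which bears on Hspa8, is not given in the sources used here.

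The deposited log2 values were fitted with limma 3.58.1 (R 4.3.3; lmFit and eBayes with a trend), with the 4 ages in 1 fit and all aged against 2M in a fit of 2 groups, over the genes whose normalized counts averaged 10 or more. The fits were tested on simulated data. Exact permutation tests (Python 3.11.15, numpy 2.4.6) used all 252 splits of 5 against 5 libraries or 15504 of 15 against 5, 2-sided. Each p for a difference between ages sets it against the spread between mice, 1 per library. For that spread limma also draws on the other genes. Sequences came from RefSeq (GRCm38.p6) and GENCODE transcripts of GRCm38, and gene positions from RefSeq by NCBI gene identifier for 10 of 10 members. The members, the gene lists and the rule for naming genes (all members, called network genes or else the 4 with the smallest p, and the 5 genes most correlated with Hspa1a and Hsp90aa1) were chosen with earlier results of these data known. The cell type lists of immune cells, vessels, melanocytes and corneal endothelium were summed and are given with the closing observations; a further list is not reported here. Alternatives were other scalings, filters, thresholds, pseudocounts, voom on the recovered reads, the replicate number as a block and leaving out each library.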

Additional observations from a re-analysis of the deposited data

Results flagged for a closer look

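Of 56 sets of 5 values (10 members and 4 pairs of members in each of 4 ages), 1 held a library far from the other 4 by Dixon's test, where chance alone marks about 1 in 20. It was Hsf1 at 2M, where replicate 1 had 9.87 normalized counts (9 reads) and the other 4 had 37.0 to 45.7, a gap of 0.758 of the range. The same library was the lowest of the 20 for Hspa1b (1748) and Hspb1 (1633) and the highest for Hspa8 (819), Dnajb1 (2233) and Hspa5 (5186), and 34.9% of its reads lay on 10 genes, the highest share of the 20. Its depth of 8587953 reads was within the range of the others. In the chi-square test of counting error over all genes, its pairs with the other 2M libraries gave 47.17 to 99.95 per degree of freedom. The highest of any other same-age pair was 44.18, between 18M replicates 2 and 4.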

How the results depend on the processing

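No member was called against 2M at 12M or 18M, or between aged groups, under any alternative run. Over all aged libraries voom called 1 member (Hspa1a, log2 change −0.648), and leaving out 1 library gave 0 to 1 members; at 24M leaving out 1 library gave 0 to 1, and for the network at 12M 0 to 1 (Cct4, a TRiC subunit named after its value was seen, without 2M replicate 1). Members at an exact permutation p of 0.05 or less ran, leaving out 1 library, from 1 to 2 at 12M, 0 to 2 at 18M, 1 to 2 at 24M and 1 to 3 over all aged libraries. The fall of Hspa1a minus Hspa1b over all aged libraries kept its direction, from −1.20 to −0.78, and lost its call in 13 of 20 tests (adjusted p = 0.0454 with all libraries, exact permutation test); the cause was not tested. Without 1 library, Hspa1b minus Hspa8 ran from −0.12 to 0.54 at 12M, and Hsp90aa1 minus Hsp90ab1 from −0.16 to 0.072 at 12M, −0.023 to 0.18 at 24M and −0.0070 to 0.20 over all aged libraries.

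Uncalled changes turned sign in 42 of 1349 single-gene values. Not all were near 0: without 2M replicate 1, Hsf1 at 24M went from 0.24 to −0.15 and Hspb1 at 18M from 0.21 to −0.078. Scaling gave 4 of the 42: Hsp90aa1 at 24M (0.0027 by quantile normalization, 0.045 by total-count scaling) and Hsph1 (0.025 by quantile normalization at 12M, 0.0099 by total-count scaling at 24M). Leaving out 1 library gave ranges of −0.21 to 0.30 for Hspa1b at 12M; −0.071 to 0.049 for Hsp90aa1 at 24M; −0.084 to 0.088, −0.15 to 0.017 and −0.059 to 0.11 for Hsp90ab1 at 18M, 24M and all aged libraries; −0.12 to 0.29, −0.078 to 0.33 and −0.050 to 0.36 for Hspb1 at 12M, 18M and all aged libraries. They were −0.11 to 0.097 and −0.22 to 0.18 for Hsph1 at 12M and 24M, −0.042 to 0.20 and −0.010 to 0.23 for Dnajb1 at 18M and all aged libraries, −0.040 to 0.18, −0.15 to 0.065 and −0.13 to 0.076 for Hspa5 at 12M, 18M and all aged libraries, and −0.15 to 0.53 for Hsf1 at 24M.

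The replicate numbers did not pair the libraries: deviations of same-numbered libraries correlated from −0.303 to 0.159, and 1 of 20 libraries was closest to its own number. With the replicate block the members and network called stayed at 0, and Hspa1a minus Hspa1b gave −1.35 at 24M with a paired exact permutation p of 0.0625, the smallest that 5 pairs allow.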

Other observations

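Among markers of other cell types, the summed normalized counts at 2M and at 24M ran from 1378 to 2203 and from 1006 to 1621 for 10 immune genes. Most of this immune sum was Itgam, which averaged 1217 at 2M and 867 at 24M, while Ptprc averaged 24.0 and 10.2. For 6 vessel genes the sums were at most 48.2 and 33.9, for 6 melanocyte genes 149.9 and 123.6, and for 5 corneal endothelial genes 183.3 and 182.4. One 12M library had a melanocyte sum of 1098. The corneal epithelial sum of 9 genes ran from 385690 to 494080 at 2M and from 420750 to 459290 at 24M.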
